A study of Mus musculus with 7 samples.

Results

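The 10 genes described here encode the proteins that fill or mark neutrophils: the calprotectin subunits S100a8 and S100a9, the granule proteins Ngp, Camp, Ltf, Elane and Mpo, the secreted protein Retnlg, and the surface proteins Csf3r and Ly6g. They were chosen by symbol from the 21965 genes of one RNASeq count table, without use of their measured levels. All 10 were found in the table and passed the filter on low counts. The tissue was a 5 mm piece of mouse spinal cord centered on a T9 contusion (50 kdyn force, 400 to 600 μm displacement), taken at dpi 3, with 1 library per mouse. There were 3 libraries labelled Bmal1-/-, from mice that carry the germline Arntl tm1Bra deletion in every cell on a C57BL/6J background and were young adults (replicates 1 and 2 female, replicate 3 male). There were 4 WT libraries from C57BL/6J mice (replicates 1 and 2 female, 3 and 4 male), bought except for a littermate of the knockouts. All mice of both groups were injured and perfused with saline before dissection, and no uninjured cord was sequenced, so the values compare genotypes after injury and carry no measure of the injury itself.

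Neutrophils are made in bone marrow and enter injured tissue from blood within hours of damage. Their granule proteins are transcribed in sequence during maturation, with Elane and Mpo of the azurophil granules at the promyelocyte stage, Ltf, Camp and Ngp of the specific granules at the myelocyte stage, and S100a8, S100a9 and Retnlg abundant in mature cells. After spinal cord contusion, neutrophils are among the first blood leukocytes in the lesion and their numbers fall as monocytes follow. C/EBP factors and PU.1 drive granule genes, and E-boxes are the sites that the CLOCK and BMAL1 dimer binds.

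The stretches upstream of S100a8, S100a9, Ngp and Ltf are shown, 4 of the 8 genes that rose and fell together from mouse to mouse. Camp, Retnlg, Elane and Mpo moved with them and are not shown. S100a8 and S100a9 are 22.6 kb apart on chromosome 3, and Camp, Ngp and Ltf lie on chromosome 9 with gaps of 570 and 596 kb. Sequences are from RefSeq on GRCm38.p6, 5′ to 3′ on the strand of the gene, beginning 250 bases before the RefSeq start and ending at that start or at an earlier GENCODE start. Capitals mark matches to TTGCNNAA (C/EBP) or GAGGAA (PU.1) on either strand. The windows are chr3:90668821-90668977 (plus strand), chr3:90695722-90695971 (minus strand), chr9:110419558-110419746 (plus strand) and chr9:111019042-111019270 (plus strand).
S100a8: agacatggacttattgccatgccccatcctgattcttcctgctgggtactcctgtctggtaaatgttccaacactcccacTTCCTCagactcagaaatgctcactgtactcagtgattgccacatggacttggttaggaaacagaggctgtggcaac
S100a9: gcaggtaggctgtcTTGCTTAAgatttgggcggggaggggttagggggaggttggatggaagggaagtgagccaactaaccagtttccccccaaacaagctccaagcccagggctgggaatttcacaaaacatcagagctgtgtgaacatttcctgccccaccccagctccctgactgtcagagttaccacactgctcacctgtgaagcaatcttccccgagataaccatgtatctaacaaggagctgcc
Ngp: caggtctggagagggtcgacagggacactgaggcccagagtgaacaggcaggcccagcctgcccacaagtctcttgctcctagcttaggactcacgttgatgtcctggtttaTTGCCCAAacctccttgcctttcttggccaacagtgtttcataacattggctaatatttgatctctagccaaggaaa
Ltf: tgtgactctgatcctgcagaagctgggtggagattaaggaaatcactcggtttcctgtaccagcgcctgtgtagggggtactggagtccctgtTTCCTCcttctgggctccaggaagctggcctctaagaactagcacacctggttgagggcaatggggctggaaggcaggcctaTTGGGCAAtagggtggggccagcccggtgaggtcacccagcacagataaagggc

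All 10 genes had a RefSeq window, and the whole 250 bases of each were searched. TTGCNNAA was found for 5 of the 10 genes (S100a9, Ngp, Ltf, Retnlg and Ly6g), against 9.56% of 32851 windows of the same length. GAGGAA was found for 6 of 10 (S100a8, Ltf, Csf3r, Elane, Mpo and Ly6g), against 23.3% of all windows. The matches did not overlap each other. The E-box CACGTG was found for 0 of 10, against 6.02% of all windows, which says only that these letters are not in these 250 bases. Ltf and Ly6g held both motifs, and Camp held none of the 3. These matches are descriptions of sequence, and no binding was measured.

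None of the 10 genes passed the test between genotypes. Of 15743 genes tested with edgeR's quasi-likelihood test, 1.57% had a Benjamini-Hochberg adjusted p under 0.05, and 0 of the 10 did, with adjusted p-values from 0.225 to 0.475. At an unadjusted p under 0.05 there were 2 of them (Camp and Elane), while 20.9% of all genes tested had one. DESeq2 called 0 of the 10 with 9.14% of genes called, and limma-voom called 0 of the 10 with 1.31% called. The mean was lower in the libraries labelled Bmal1-/- for 9 of the 10 genes and higher for Csf3r. The median log2 fold change of the 10 was -0.80, beside -0.01 for all genes tested, of which 51.1% were lower. The genotypes overlapped for all 10, so 0 of 10 were separated, whereas 26.9% of all genes tested were separated. A lower level in whole tissue can come from fewer neutrophils, less RNA per neutrophil or a different tissue content of the piece. These cannot be told apart here.

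S100a8 and S100a9 encode the subunits of calprotectin, a protein complex that binds calcium, zinc and manganese and makes up much of neutrophil cytosol. Levels are given as CPM, gene counts scaled to the library size and TMM factors. S100a8 was at 16.1, 8.36 and 7.54 CPM in replicates 1, 2 and 3 labelled Bmal1-/- and at 8.14, 18.9, 31.7 and 16.5 CPM in WT replicates 1 to 4. WT replicate 3 was highest and WT replicate 1 fell among the Bmal1-/- libraries. Their means were 10.7 ± 4.75 CPM (SD, n = 3) in Bmal1-/- and 18.8 ± 9.77 CPM (SD, n = 4) in WT, which gave -0.82 on the log2 scale (standard error 0.47, edgeR adjusted p = 0.327).

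S100a9 was at 22.5, 15.6 and 11.2 CPM in the Bmal1-/- libraries and at 13.6, 29.2, 46.8 and 21.7 CPM in WT. The order of the libraries was nearly that of S100a8, and the groups overlapped again. This was a log2 fold change of -0.76 (standard error 0.42, edgeR adjusted p = 0.320). Within each library the CPM of S100a9 was 1.31 to 1.86 times that of S100a8, a 1.42-fold range, while the CPM of S100a8 itself ranged 4.21-fold. The median of this ratio was 1.49 in the Bmal1-/- libraries and 1.51 in WT.

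**Figure D1:**
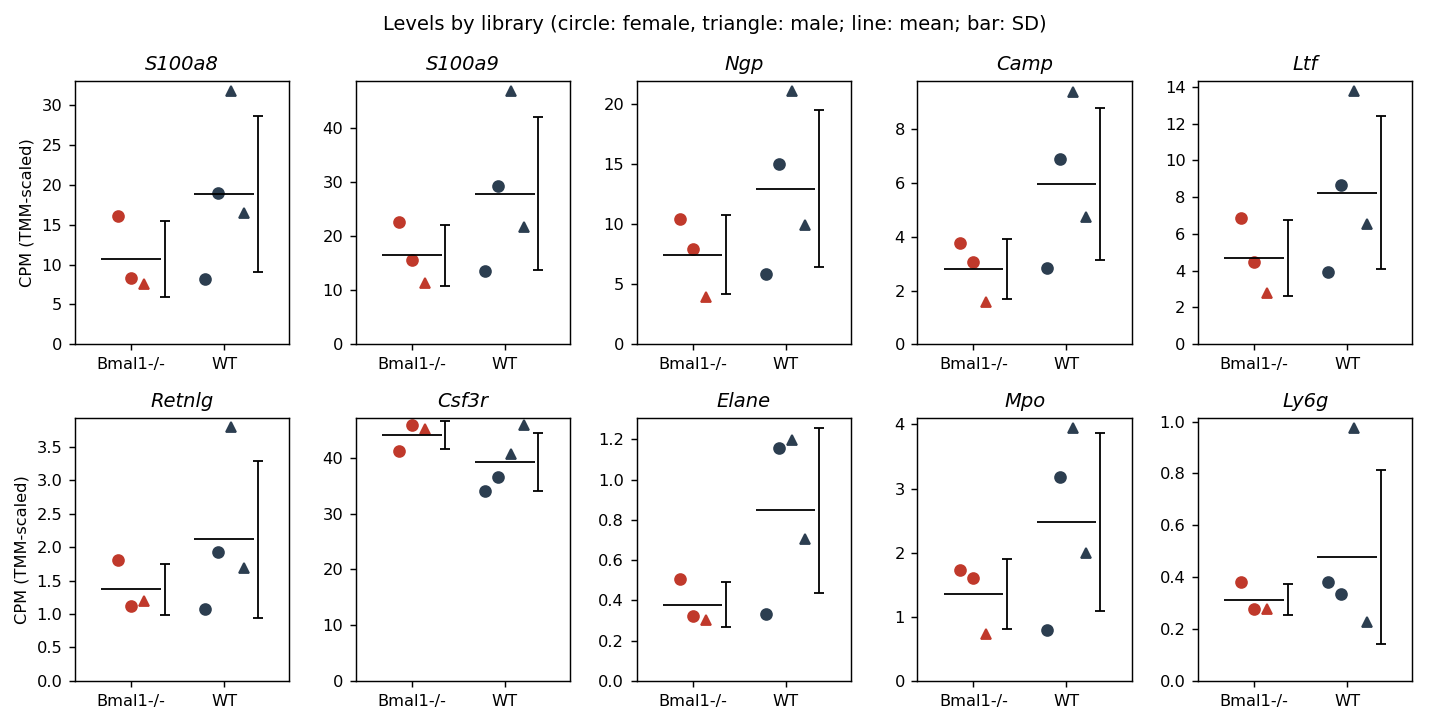
CPM (linear axes from 0) of each of the 10 genes in every library, with circles for females, triangles for males, a line at the group mean and a bar of 1 SD (n = 3 Bmal1-/-, n = 4 WT). WT replicate 3 is the highest point for 9 genes, WT replicate 1 lies low in most panels, and the groups overlap in all 10 panels.

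Among the specific granule genes, Ngp encodes neutrophilic granule protein, a cystatin-like protein. Ngp was at 10.4, 7.96 and 3.91 CPM in the Bmal1-/- libraries and at 5.84, 15.0, 21.04 and 9.94 CPM in WT. Its log2 fold change was -0.80 (standard error 0.48, edgeR adjusted p = 0.345). Here WT replicates 1 and 4 both lay inside the Bmal1-/- range.

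Camp encodes the precursor of the antimicrobial peptide cathelicidin. It was at 3.79, 3.06 and 1.57 CPM in the Bmal1-/- libraries and at 2.86, 6.89, 9.41 and 4.74 CPM in WT. Only WT replicate 1 of the WT libraries reached into the Bmal1-/- range. Its log2 fold change was -1.09 (standard error 0.45, unadjusted p = 0.0452, edgeR adjusted p = 0.232).

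Ltf encodes lactoferrin, an iron-binding protein. It was at 6.86, 4.46 and 2.77 CPM in the Bmal1-/- libraries and at 3.95, 8.66, 13.8 and 6.53 CPM in WT. WT replicates 1 and 4 lay inside the Bmal1-/- range, as for Ngp. The log2 fold change was -0.81 (standard error 0.46, edgeR adjusted p = 0.327). The ratio of Ltf to Ngp in CPM stayed between 0.560 and 0.708 in the 7 libraries.

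Ngp was counted at 2.48 to 2.76 times Camp in the Bmal1-/- libraries and at 2.04 to 2.24 times Camp in WT. Of 8 ratios between pairs of the 10 genes that were computed, this one alone had genotypes that did not overlap, and it was singled out after its values were seen. Its whole range was 1.35-fold, and it was not tested.

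Elane and Mpo encode neutrophil elastase and myeloperoxidase, which are transcribed before the other granule genes. Elane was at 0.508, 0.325 and 0.305 CPM in the Bmal1-/- libraries and at 0.332, 1.16, 1.20 and 0.706 CPM in WT. WT replicate 1 was as low as the Bmal1-/- libraries, and the 3 other WT libraries were above all of them. The log2 fold change of -1.16 was the lowest of the 10 genes (standard error 0.47, unadjusted p = 0.0413, edgeR adjusted p = 0.225).

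Elane rested on few reads. Its counts were 20, 14 and 12 in the Bmal1-/- libraries and 13, 45, 48 and 28 in WT. The exact Poisson 95% interval was 6.92 to 22.2 for WT replicate 1 and 35.4 to 63.6 for WT replicate 3, so that those 2 mice differed by more than counting error alone, which is all that the interval covers.

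Mpo was at 1.73, 1.60 and 0.736 CPM in the Bmal1-/- libraries and at 0.791, 3.19, 3.94 and 1.99 CPM in WT. The pattern was that of Elane, with WT replicate 1 among the Bmal1-/- libraries and the 3 other WT libraries above them. The log2 fold change was -0.87 (standard error 0.55, edgeR adjusted p = 0.361). An antisense gene, Gm11505, overlaps the exons of Mpo, and the strand setting of the counting is not given in the sources used here, so part of this count may belong to it.

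Retnlg, a resistin-like protein of mature neutrophils, was at 1.80, 1.11 and 1.19 CPM in the Bmal1-/- libraries and at 1.07, 1.93, 3.79 and 1.69 CPM in WT. WT replicate 1 was the lowest of all 7 libraries. The log2 fold change was -0.63 (standard error 0.43, edgeR adjusted p = 0.390).

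Ly6g encodes the surface antigen by which mouse neutrophils are usually sorted. It was at 0.381, 0.279 and 0.279 CPM in the Bmal1-/- libraries and at 0.383, 0.334, 0.974 and 0.227 CPM in WT. A single WT library, replicate 3, stood above the others, and WT replicate 4 was the lowest of all. The log2 fold change was -0.61 (standard error 0.52, edgeR adjusted p = 0.475), and it was -0.01 without WT replicate 3. The counts ran from 9 to 39, and Ly6g has close paralogs between which reads can be split, so its level is uncertain.

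Csf3r, the receptor for G-CSF that drives neutrophil production and release, went another way. It was at 41.2, 45.8 and 45.2 CPM in the Bmal1-/- libraries and at 34.0, 36.6, 40.7 and 46.0 CPM in WT. The highest of all was WT replicate 4, and the other 3 WT libraries lay below every Bmal1-/- library. Their means were 44.1 ± 2.51 CPM (SD, n = 3) in Bmal1-/- and 39.3 ± 5.23 CPM (SD, n = 4) in WT, which gave 0.16 on the log2 scale (standard error 0.11, edgeR adjusted p = 0.380). Csf3r ranged 1.35-fold over the 7 libraries, against 3.54- to 5.98-fold for the other 9 genes. Which cells of the tissue its RNA came from was not tested.

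Divided by the length of the gene's exons, the levels ran from S100a9 down through S100a8, Csf3r, Ngp, Camp, Retnlg, Ltf, Elane and Mpo to Ly6g. The mean over the 7 libraries was 44.0 ± 23.3 CPM per kb (SD, n = 7) for S100a9, 22.1 ± 12.4 for S100a8 and 11.5 ± 1.31 for Csf3r. The next were Ngp at 8.67 ± 4.76 and Camp at 6.09 ± 3.56 CPM per kb. Retnlg followed at 3.03 ± 1.60 and Ltf at 1.95 ± 1.07 CPM per kb. Elane, Mpo and Ly6g were at 0.658 ± 0.395, 0.583 ± 0.347 and 0.433 ± 0.272 CPM per kb. Neighbors in this order kept it in all 7 libraries for S100a9 over S100a8, Ngp over Camp, Camp over Retnlg, Retnlg over Ltf and Ltf over Elane. S100a8 exceeded Csf3r in 5 of 7 libraries, Csf3r exceeded Ngp in 5, Elane exceeded Mpo in 6 and Mpo exceeded Ly6g in 5, so these neighbors were not separated. Without division by length Csf3r came first by CPM, since its exons add up to 3609 bases against 522 for S100a9. By mean CPM, 62.5% of the genes tested lay below Csf3r, 46.3% below S100a9 and 3.36% below Ly6g.

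The levels of 8 of the 10 genes rose and fell together from mouse to mouse. Pearson's r of log2 CPM over the 7 libraries was 0.85 to 0.99 in the 28 pairs of these 8 genes, with a median of 0.94. Ly6g correlated with them at 0.51 to 0.78 and Csf3r at -0.25 to -0.01. These are descriptions over 7 libraries that differ in genotype, sex and tissue content, and all genes of a library share its depth and scaling. Mpo to S100a9, an azurophil gene to a calprotectin gene, kept a ratio of 0.0582 to 0.109, a 1.88-fold range, while Csf3r to S100a9 ranged 4.62-fold.

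**Figure D2:**
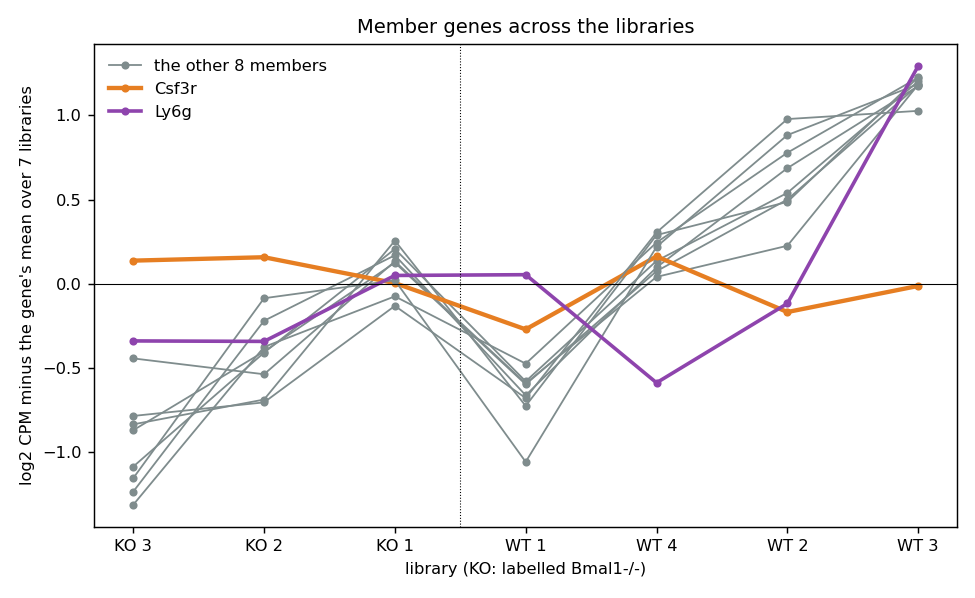
Log2 CPM of each of the 10 genes minus its own mean over the 7 libraries, with libraries ordered within genotype by the mean of the genes (KO marks libraries labelled Bmal1-/-). The 8 gray genes run together from Bmal1-/- replicate 3 up to replicate 1 and from WT replicate 1 up to WT replicate 3, Ly6g departs from them in WT replicates 1, 2 and 4, and Csf3r stays near 0.

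The shared pattern varied widely between mice of the same genotype. For the 9 genes other than Csf3r, WT replicate 3 was the highest library for 9 and the Bmal1-/- male, replicate 3, was the lowest for 7. Every Bmal1-/- library lay below WT replicate 2 for 8 of the 9 and below WT replicate 4 for 4 of the 9. WT replicate 1 was below the Bmal1-/- mean for 7 of the 9 and below Bmal1-/- replicate 1 for 8 of the 9. Their summed level was 64.2, 42.7 and 29.5 CPM in the Bmal1-/- libraries and 37.0, 85.3, 132.7 and 64.0 CPM in WT. The share of Csf3r in the sum of all 10 genes was therefore 23.5% in WT replicate 3 and 60.5% in Bmal1-/- replicate 3.

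This spread between mice was wide compared with other genes of like abundance. Within WT the coefficient of variation was 47.2 to 70.1% for the 9 genes, and 13.3% for Csf3r. Reads alone would give 3.01% for S100a9 and 22.9% for Ly6g at the mean WT count. The gene's own dispersion, edgeR's squared biological variation, was 1.63 to 4.77 times the trend at its abundance for the 9 genes, and 87.7 to 98.0% of all genes had a lower ratio. For Csf3r it was 0.659 times the trend, with 59.3% of genes below. S100a9 had 443 to 1876 counts per library, so depth was not what limited its comparison.

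Because levels varied widely between mice of a genotype, each value was recomputed with single libraries left out. Without WT replicate 3 the log2 fold changes of the 9 genes were -0.94 to -0.01, with a median over the 10 genes of -0.44, and 0 of 10 passed. S100a8 then came to -0.45, S100a9 to -0.39, Retnlg to -0.19, Camp to -0.78 and Elane to -0.94. Without WT replicate 1 the log2 fold changes were -1.43 to -0.72, with a median of -1.05, and 7 of 10 had an unadjusted p under 0.05, as did 18.0% of all genes in that fit, but the smallest edgeR adjusted p was 0.150. Over all alternatives the adjusted p of the 9 genes ran from 0.110 to 0.991. The direction of each of the 10 genes stayed the same with every library left out in turn.

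Each sex was also compared alone. In females, 2 against 2, the log2 fold changes of the 9 genes were -0.84 to -0.04, with a median over the 10 genes of -0.16. In males, 1 against 2, they were -2.17 to -1.10, with a median of -1.66, and the lone male labelled Bmal1-/- was assumed to vary like the WT males. S100a8 averaged 12.2 CPM in Bmal1-/- females and 13.5 CPM in WT females. The Bmal1-/- male had 7.54 CPM of S100a8, and the WT males had 16.5 and 31.7 CPM. The interaction of sex and genotype called 0 of the 10 genes, with edgeR adjusted p-values of 0.404 to 0.699, and 0% of all 15743 genes. A single male labelled Bmal1-/- carries that whole contrast, so sex and mouse cannot be told apart in it.

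**Figure D3:**
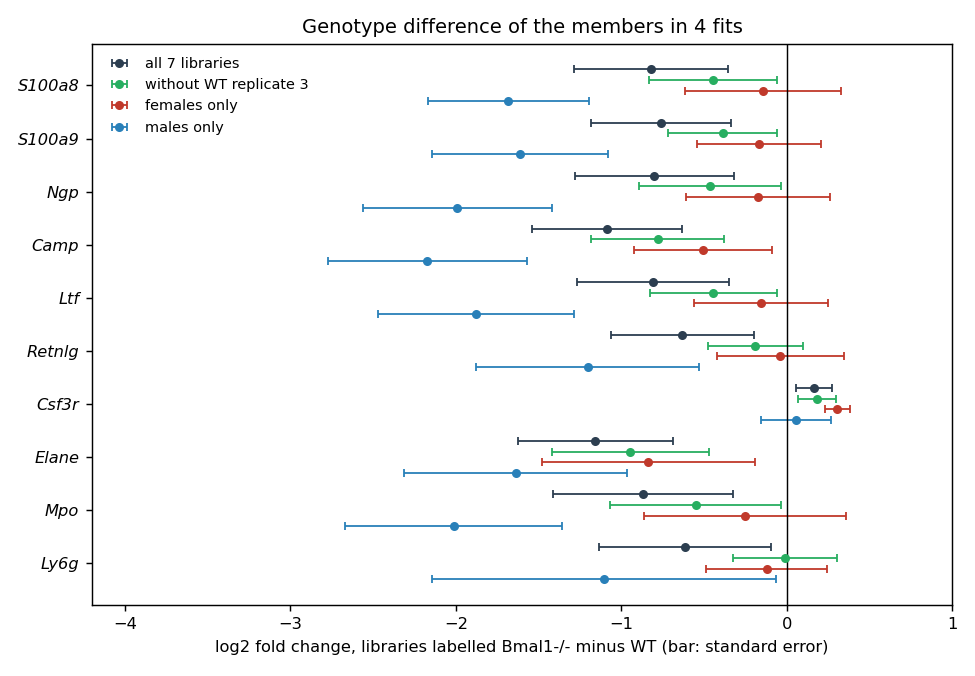
Log2 fold change (libraries labelled Bmal1-/- minus WT) of each of the 10 genes with its standard error, from all 7 libraries, without WT replicate 3, in females (2 against 2) and in males (1 against 2). The 9 genes other than Csf3r lie below 0 in all 4 fits and farthest from it in males. They lie nearest to 0 in females, except Ly6g, which lies nearest without WT replicate 3, and Csf3r lies between 0.06 and 0.31.

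Other genes of the neutrophil program were read from 6 lists: azurophil granule, specific and gelatinase granule, surface receptors, ligands, granulopoiesis factors and NADPH oxidase. Of their 41 genes 35 were tested and 0 passed (1.57% of all genes tested), with 31 lower, 4 higher and a median log2 fold change of -0.36. An unadjusted p under 0.05 was found for 8 of the 35 in the same test, and for 20.9% of all genes tested. limma-voom called 0 of them (1.31% of all genes). DESeq2 called 3 (Pglyrp1, Clec4d and Ppbp, all lower), beside 9.14% of all genes in its fit. WT replicate 3 held the highest level for 30 of the 35, and 6 of the 35 had groups that did not overlap, against 26.9% of all genes.

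Of the other azurophil granule genes, 3 of 5 were tested and the median log2 fold change was -0.46. Prtn3, which encodes proteinase 3, was at 1.42 to 2.03 CPM in the Bmal1-/- libraries and 1.77 to 3.42 CPM in WT, with a log2 fold change of -0.46 (edgeR adjusted p = 0.354). Plppr3 overlaps it on the other strand. Ms4a3, a membrane protein of myeloid progenitors, had a log2 fold change of -2.18 (edgeR adjusted p = 0.190) with 0.051 to 0.162 CPM against 0.126 to 1.05 CPM. The counts of Ms4a3 were low, from 2 to 41 per library. Bpi was at 0 counts in all 7 libraries, and Ctsg did not pass the filter.

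The specific and gelatinase granule list behaved unevenly, with 5 of 8 genes lower, 3 higher and a median of -0.32. Lcn2, the siderophore-binding lipocalin that astrocytes also make after injury, was the most abundant at 50.7 to 68.2 CPM in the Bmal1-/- libraries and 38.7 to 68.0 CPM in WT (log2 fold change 0.29, edgeR adjusted p = 0.436). Mmp9, or gelatinase B, was at 9.05 to 14.1 and 8.95 to 12.01 CPM (0.07, adjusted p = 0.828). Neither moved with the 10 genes, since their r with the mean of the 9 other than Csf3r was 0.37 and 0.31 over 7 libraries. Pglyrp1, a peptidoglycan-binding protein, had groups that did not overlap, at 7.28 to 10.3 and 11.3 to 19.2 CPM (-0.72, adjusted p = 0.151). Olfm4, picked after its values were seen, also had groups that did not overlap, but in the other direction. It was at 1.58 to 1.86 CPM in the Bmal1-/- libraries and 1.06 to 1.37 CPM in WT (0.48, edgeR adjusted p = 0.187). Chil3, also made by macrophages, was at 24.3 to 36.3 and 25.6 to 62.9 CPM (-0.36, adjusted p = 0.532).

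Surface receptors were lower in all 9 tested of 10, with a median log2 fold change of -0.55 and 0 called. Clec4d and Clec4e, C-type lectin receptors that monocytes also carry, did not overlap between genotypes. This was so for 26.9% of all genes tested. Clec4d was at 10.3 to 15.5 CPM in the Bmal1-/- libraries and 19.8 to 48.9 CPM in WT (log2 fold change -1.10, edgeR adjusted p = 0.166). Clec4e had a log2 fold change of -1.09 (adjusted p = 0.215). The chemokine receptor Cxcr4 and the amplifier of myeloid activation Trem1 had log2 fold changes of -0.14 and -0.33 (adjusted p = 0.736 and 0.605).

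Ligands were scarce. Of 6 genes 4 were tested, all 4 lower, with a median log2 fold change of -1.05 and 0 called. Cxcl1, a neutrophil chemoattractant, was at 0.627 to 1.09 CPM in the Bmal1-/- libraries and 1.01 to 2.80 CPM in WT (-0.69, edgeR adjusted p = 0.363). Cxcl2 had a log2 fold change of -1.32 (adjusted p = 0.282) and Cxcl5 one of -0.78 (adjusted p = 0.361). Ppbp, a platelet chemokine, was at 0.102 to 0.279 CPM against 0.308 to 1.67 CPM (-2.17, adjusted p = 0.176). Csf3, the ligand of Csf3r, did not pass the filter, with at most 0.125 CPM in any library.

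Granulopoiesis factors were all lower in the 5 of 6 tested, with a median of -0.30 and 0 called. Cebpb had groups that did not overlap, at 14.4 to 17.6 and 18.0 to 35.3 CPM (log2 fold change -0.60, edgeR adjusted p = 0.215). Cebpa, Cebpd and Spi1, which encodes PU.1, had log2 fold changes of -0.30, -0.22 and -0.22 (adjusted p = 0.372, 0.510 and 0.537). Cebpe, the factor most restricted to granulocytes, was picked after its values were seen. It was at 0.051 to 0.178 CPM against 0.128 to 0.424 CPM (-1.35, adjusted p = 0.214), and its r with the mean of the 9 genes was 0.92 over 7 libraries. Its counts were only 7, 5 and 2 in the Bmal1-/- libraries and 5, 12, 17 and 13 in WT, so these values are uncertain.

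The NADPH oxidase genes, which encode the enzyme that makes superoxide, were tested in 6 of 6, with 5 lower, 1 higher, a median of -0.29 and 0 called. The 3 receptors through which calprotectin signals or binds were lower, with 0 called by edgeR or DESeq2 (1.57% and 9.14% of all genes). At an unadjusted p under 0.05 in edgeR there was 1 of these 3 receptors, and 20.9% of all genes tested. Groups did not overlap for 2 of these 3 receptors (Tlr4 and Cd36), against 26.9% of all genes tested. Among them Tlr4 was at 10.3 to 12.3 against 13.4 to 18.3 CPM (log2 fold change -0.40, edgeR adjusted p = 0.172). Cd36 was at 36.6 to 36.8 against 39.3 to 108.4 CPM (-0.80, adjusted p = 0.245), and Ager had -0.39 (adjusted p = 0.439). Of the other S100 genes 9 of 10 were tested, 6 lower and 3 higher, with a median of -0.17. Of these S100 genes 0 were called by edgeR or DESeq2 (1.57% and 9.14% of all genes). S100b, made by glia, was the most abundant of them at 523.9 to 682.1 against 668.2 to 861.6 CPM (-0.29, adjusted p = 0.262).

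Protease inhibitors that restrain neutrophil proteases included the gene nearest to the threshold in these neutrophil-related lists. Serpinb1a, an inhibitor of elastase and proteinase 3, was at 20.1 to 30.0 CPM in the Bmal1-/- libraries and 38.7 to 51.5 CPM in WT. The groups did not overlap, and the log2 fold change was -0.82 (standard error 0.16, edgeR adjusted p = 0.0590). Slpi had -0.74 (adjusted p = 0.256). Serpina3n, which reactive astrocytes make, was higher on average, at 2008 to 2650 against 1456 to 1829 CPM (0.49, adjusted p = 0.136). Of the 3 genes 0 passed in edgeR, with 2 at an unadjusted p under 0.05 (20.9% of all genes tested). DESeq2 called Serpinb1a and Serpina3n, beside 9.14% of all genes in its fit.

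The mouse-to-mouse pattern of the 9 genes was set beside marker lists of other cells, and the part of these cells in the result was not tested. Red cell genes were lower in 7 of 7 tested, with a median log2 fold change of -2.46. All 7 had no overlap between genotypes, against 26.9% of all genes tested. edgeR called 1 of the 7 (1.57% of all genes), and DESeq2 called all 7 (9.14% of all genes). Hbb-bt was the gene edgeR called, at 1.45 to 3.25 CPM against 14.0 to 42.0 CPM (-3.31, edgeR adjusted p = 0.0266). The summed red cell level was 27.4 to 63.1 CPM in the Bmal1-/- libraries and 154.4 to 470.4 CPM in WT, and WT replicate 3 was highest there too. The mean centered level of the red cell list had an r of 0.82 with the mean of the 9 neutrophil genes over 7 libraries. The lists differed in WT replicate 1, which was above every Bmal1-/- library in red cell genes and among them in neutrophil genes.

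Monocyte and macrophage genes were lower in 8 of 10 with a median of -0.38, at summed levels of 2158 to 2927 CPM in the Bmal1-/- libraries and 2107 to 4198 CPM in WT. edgeR called 0 of them, with 2 at an unadjusted p under 0.05 (20.9% of all genes tested). DESeq2 called Arg1 (edgeR log2 fold change -1.26, adjusted p = 0.192), beside 9.14% of all genes in its fit. The monocyte and macrophage list had an r of 0.74 with the 9 genes. Microglia genes were lower in 5 of 7, with 0 called by edgeR or DESeq2, 0 at an unadjusted p under 0.05 and a median of -0.10, at 981.2 to 1136 and 987.0 to 1278 CPM. Their r was 0.09 with the 9 genes and 0.53 with Csf3r, the highest r of Csf3r with any of these lists. Spinal cord cell genes, 6 of 7 higher with a median of 0.42, had an r of -0.72 with the 9 genes. edgeR called 0 of them, with 0 at an unadjusted p under 0.05. DESeq2 called Gfap (edgeR log2 fold change 0.42, adjusted p = 0.270), beside 9.14% of all genes in its fit. Snap25 of neurons was at its lowest, 455.9 CPM, in WT replicate 3, and Gfap of astrocytes was at 7457 to 12657 CPM over all libraries, so the tissue carried the markers of its label.

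Platelet genes were lower in 4 of 4 tested, with a median of -0.52, and B cell genes in 3 of 4, with a median of -0.44. The single T cell gene tested, Lck, and both eosinophil and mast cell genes tested were lower. In these 4 lists 0 passed in edgeR or DESeq2, with 3 at an unadjusted p under 0.05 (20.9% of all genes tested). Skeletal muscle genes were lower in 5 of 5 with a median of -3.25, at summed levels of 4.57 to 5.96 CPM against 40.3 to 49.4 CPM. All 5 had no overlap between genotypes, against 26.9% of all genes tested. edgeR called 4 of them (Acta1, Ckm, Mylpf and Tnnt3, log2 fold changes -3.57 to -2.01), beside 1.57% of all genes. DESeq2 called all 5 skeletal muscle genes (9.14% of all genes) and limma-voom called 4 (1.31% of all genes). Their r with the 9 genes was 0.46.

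**Figure D4:**
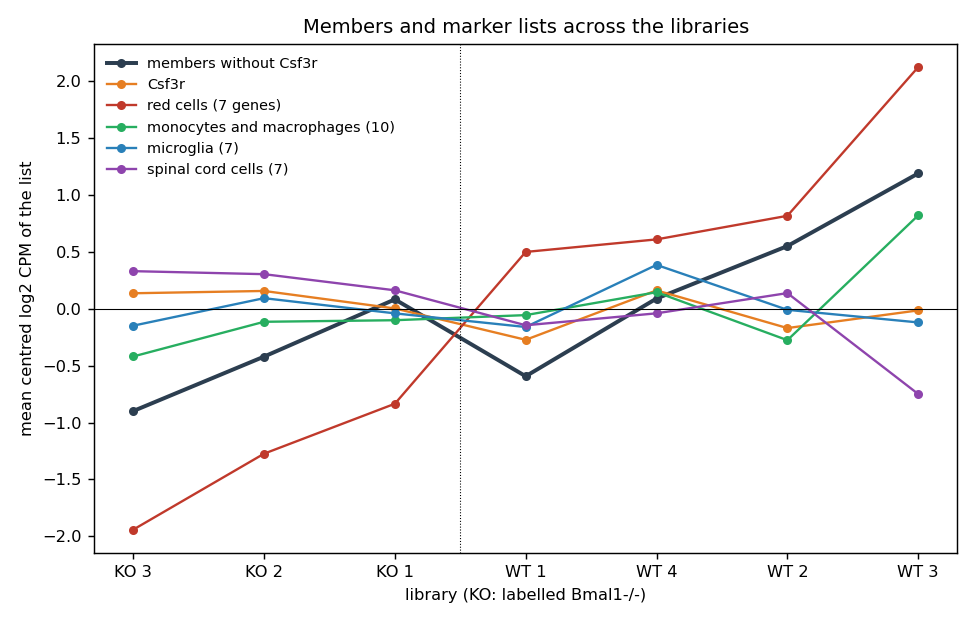
Mean centered log2 CPM of the 9 members other than Csf3r, of Csf3r and of 4 marker lists in each library, ordered as in the plot of single genes. Red cell and neutrophil genes both peak in WT replicate 3, but the red cell list puts WT replicate 1 well above all libraries labelled Bmal1-/- and the 9 neutrophil genes put it among them, and the spinal cord list is lowest in WT replicate 3.

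The 10 tested genes outside all lists with the highest r with the mean of the 10 neutrophil genes over the 7 libraries were Poll, Mtfr1, Zfp961, E2f5, Tra2a, Ccdc71l, Gm867, Klrb1b, Pex11g and Gtf3c2. Their r was 0.99 for Poll down to 0.97 for Gtf3c2, the best among 15743 genes over only 7 points. Poll, a DNA polymerase, ranged 1.16-fold over the libraries, at 16.1 to 18.8 CPM. The genes differed from the neutrophil genes in how far they moved, since 9 of these 10 ranged 1.16- to 1.68-fold and Klrb1b, a receptor of natural killer cells, 3.09-fold. Among listed genes, Cd177, a neutrophil surface protein held in specific granules, had an r of 0.96 with the mean of the 9 genes, and was chosen after its value was seen. It was at 0.711 to 1.47 CPM in the Bmal1-/- libraries and 1.17 to 3.12 CPM in WT (log2 fold change -0.71, edgeR adjusted p = 0.326).

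The libraries held 38529644 to 44096737 counts. In a principal component analysis the first component (48.6% of the variance) separated the genotypes. It was at -48.64 to -18.28 in the Bmal1-/- libraries and 10.18 to 51.37 in WT, with WT replicate 3 highest. On the second component (26.3%) WT replicate 3 was again highest at 36.93, and WT replicates 1 and 2 were lowest at -32.36. Arntl, the gene targeted, was counted at 22.5 to 24.2 CPM in the libraries labelled Bmal1-/- and 11.9 to 15.3 CPM in WT (log2 fold change 0.77, edgeR adjusted p = 0.0155). A gene count does not resolve the deleted part of the gene, and the antisense gene Gm45355 overlaps its span, so this higher count checks neither the deletion nor the labels.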

How the data were processed

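RNASeq of contused spinal cord tissue was available from 3 mice labelled Bmal1-/- and 4 WT mice. Per the study's methods and the labels, the authors made stranded poly-A libraries (TruSeq), checked reads with FastQC 0.10.1, aligned them with Tophat2 to GRCm38 and counted them per gene with HTSeq 0.10.0. The deposited table holds raw counts per gene, not normalized, which are whole numbers whose totals differ between libraries. The annotation release and strand setting of the counting are not given in the sources used here.

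Genes were filtered with filterByExpr (edgeR 4.0.16, R 4.3.3) on genotype, which left 15743 of 21965. After TMM scaling, the quasi-likelihood test of edgeR compared the genotypes for every gene. P-values were adjusted by Benjamini-Hochberg over all genes, and 0.05 was the threshold. The standard error is the log2 fold change divided by the root of the test statistic. Log2 CPM for correlations used a prior count of 2. CPM per kb used exon lengths of GENCODE release 21 for mouse, whose 21939 matched genes also gave overlaps. Spread between mice sets the precision of abundant genes, and counting error adds to it for Elane and Ly6g.

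Alternatives were DESeq2 1.42.0, limma-voom (limma 3.58.1), RLE and upper-quartile scaling, filters at 1 count or at a mean of 10 counts, a term for sex, a replicate block, each sex alone and each library left out. The methods were tested on simulated data in which every gene had the same dispersion, lower than that of the neutrophil genes other than Csf3r. Genes of the lowest counts were left out of it. That test therefore does not show how the methods perform on genes as variable as these. The genes and gene lists were chosen with earlier results of these data known. Named were the 10 genes, called genes of each list or up to 4 of its most abundant, and the 10 genes most alike by r, beside those said to be chosen after their values were seen. Plots were drawn with matplotlib 3.10.9. Group allocation was by genotype, so litter and supplier differ between groups.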

Additional observations from a re-analysis of the deposited data

Results flagged for a closer look

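Of 28 sets of the 4 WT values tested for a library far from the others (the 10 genes and the summed levels of the other lists), 2 held one by Dixon's criterion, which flags about 1 in 20 sets by chance. The specific and gelatinase granule genes other than Ngp, Camp and Ltf summed to 185.7 CPM in WT replicate 3 and to 99.0 to 104.1 CPM in the other WT libraries. Red cell genes summed to 470.4 CPM in WT replicate 3 and to 154.4 to 174.8 CPM in the other WT libraries. None of the 10 genes by itself met the criterion in WT. The interaction of sex and genotype called none of them, but it rests on 1 male labelled Bmal1-/- and called 0 of all genes, so it says little about whether the genotype difference varies with sex.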

How the results depend on the processing

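All 170 values of the 10 genes under 17 alternatives kept their direction and stayed above the threshold, with 0.0981 the smallest adjusted p, for Csf3r in females alone. The count of the 10 genes called was 0 under every alternative. The median log2 fold change of the 10 was -0.80, and its values with each library left out ran from -1.10 to -0.44. It was -0.16 in females alone and -1.66 in males alone, and elsewhere moved by less than the spread of 0.60 between replicates. Over all genes 247 were called, 1494 with DESeq2, 757 in females alone, and 0 both in males alone and with the replicate block, where 1567 and 1590 had an unadjusted p under 0.05. It was 57 to 730 with each library left out, the highest without WT replicate 3. The replicate numbers are not stated to mark shared litters or days, and same-numbered libraries deviated with correlations of -0.17, 0.18 and -0.30, so they were not taken as pairs. The order of levels changed for 8 of the 10 genes when CPM was not divided by length. Counting error was largest for Ly6g and Elane, and in WT the spread between mice exceeded it for all 10 genes.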
